A study of Homo sapiens with 6 samples.

Results

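SF3A1, SF3A2 and SF3A3 of the SF3A complex, SF3B1 to SF3B5 of the SF3B complex, and their partners U2AF2 and SNRPB2 were read by 24 probe sets that name 1 of these 10 genes alone, out of 54613 probe sets tested and 19775 genes. OCI-AML3 is a cell line grown from human acute myeloid leukaemia. RNA of 3 samples of these cells treated with 1 μM SAHA (Vorinostat, an inhibitor of histone deacetylases) for 24 h was compared with RNA of 3 samples given the solvent DMSO for 24 h, on Affymetrix arrays, where a gene may have several probe sets. Each treatment had replicates numbered 1, 2 and 3, and nothing in the sources says that they came from separate cultures, so the spread between them may be technical. Values are log2 as the authors deposited them, and a difference is Vorinostat minus DMSO on that scale. The genes were chosen by the Vorinostat and DMSO values of these arrays, the lower values of SF3A1 and SF3A2 among them, and the study lists SF3A1 as decreasing on the same samples. Their differences are therefore given as a description, with no test.

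The U2 snRNP is the particle of the spliceosome, the machine that removes introns, which pairs with the branch site of the intron. SF3A and SF3B are the protein complexes that turn a bare U2 particle into one that can bind the pre-mRNA, and SF3B holds the branch site adenosine while the first splicing step is prepared. U2AF2 reads the pyrimidine tract next to the branch site and recruits the U2 particle, and SNRPB2 binds the U2 RNA itself. Recurrent mutations of SF3B1 are known in myeloid malignancies, and splicing is needed in every cell.

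The genes lie on separate chromosomes or far apart (RefSeq, GRCh38.p14), with SF3A1 at chr22:30331988-30356894, SF3A2 at chr19:2236824-2248655 and SF3A3 at chr1:37956975-37990022. SF3B1 lies at chr2:197389784-197435093, SF3B2 at chr11:66052364-66069308, SF3B3 at chr16:70523816-70577668, SF3B4 at chr1:149923317-149927803 and SF3B5 at chr6:144094884-144095573. U2AF2 lies at chr19:55655035-55674716 and SNRPB2 at chr20:16730026-16742564. The probe sets read transcripts of these genes, and which exons they cover was not analysed here. The 250 bases before the start of these genes are shown because the 3 SF3A genes had the lowest differences of the 10. Each sequence is in the direction of the gene and was taken from RefSeq, GRCh38.p14. Capitals mark CCGGAAGT or its reverse complement ACTTCCGG, the core that transcription factors of the ETS family recognise. The motif was chosen after the letters had been seen. The windows are chr22:30356895-30357144 (minus strand) for SF3A1, chr19:2236574-2236823 (plus strand) for SF3A2 and chr1:37990023-37990272 (minus strand) for SF3A3.
SF3A1: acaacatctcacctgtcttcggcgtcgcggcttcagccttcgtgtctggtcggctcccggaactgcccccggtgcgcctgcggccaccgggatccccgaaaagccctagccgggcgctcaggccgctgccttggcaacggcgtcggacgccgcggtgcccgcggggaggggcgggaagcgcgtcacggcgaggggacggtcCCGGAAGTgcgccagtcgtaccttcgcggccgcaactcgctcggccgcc
SF3A2: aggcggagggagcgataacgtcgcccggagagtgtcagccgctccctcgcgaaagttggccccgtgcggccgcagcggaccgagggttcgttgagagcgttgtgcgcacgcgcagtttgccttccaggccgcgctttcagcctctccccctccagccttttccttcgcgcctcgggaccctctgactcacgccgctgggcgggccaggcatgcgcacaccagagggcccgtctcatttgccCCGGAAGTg
SF3A3: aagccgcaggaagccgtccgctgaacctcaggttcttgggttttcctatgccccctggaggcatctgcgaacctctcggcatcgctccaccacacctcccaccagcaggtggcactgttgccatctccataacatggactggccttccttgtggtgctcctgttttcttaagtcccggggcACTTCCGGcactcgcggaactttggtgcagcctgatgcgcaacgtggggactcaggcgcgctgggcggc
The marked letters begin 49 bases before the start in SF3A1, 9 bases before it in SF3A2 and 69 bases before it, on the other strand, in SF3A3. They were also found in SF3B2, SF3B4 and U2AF2, so in 6 of the 9 genes with an entry, against 3.42% of all 35116 windows and 4.4% of the 22198 windows of protein-coding genes. SF3B1, SF3B5 and SNRPB2 did not hold these letters in the window. The GC box GGGCGG, searched on both strands, was found in 6 of the 9 genes, against 53.7% of the protein-coding windows, the NF-Y motif CCAAT in 1 of the 9, against 32.7%, and TATAAA in 0 of the 9, against 9.01%. These matches describe the letters of the windows and no binding was measured here.

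Signal differed between arrays of 1 treatment, and this touches every value below. A log2 value over 3 was found for 8158 probe sets on Vorinostat array 1 and for 8645 on DMSO array 1, while each of the other 4 arrays had from 2761 to 3731. Among the 3379 genes whose probe set had a mean of at least 3, called brighter genes here, the median difference was -0.15 in replicate number 1, -0.73 in number 2 and 0.20 in number 3. Over all 54613 probe sets, 0 were lower and 0 were higher at an adjusted p under 0.05 from limma, with 273 (0.5%) lower and 272 (0.498%) higher at an unadjusted p under 0.05, and the methods' t-test also gave 0 after adjustment. Of 10 measured myeloid marker genes, ELANE, CEBPA and LYZ had means of at least 3, while MPO, SPI1, ANPEP, CD14 and ITGAM were below it. The summed log2 level of the 10 ranged from 22.0 to 39.0 on the Vorinostat arrays and from 27.2 to 40.5 on the DMSO arrays. None of 23 measured markers of T and NK, B, erythroid, fibroblast and epithelial cells had a mean of at least 3. The lowest value of any tested probe set was 0.868, so a value above 0 does not show that a marker is present. The part of the marker levels in the differences was not tested. In such bulk samples fewer cells of a type and less RNA per cell cannot be told apart.

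With 1 probe set per gene, the one of the highest mean over the 6 arrays, 9 of the 10 genes had a lower mean with Vorinostat and SNRPB2 a higher one. The 3 SF3A genes had the lowest differences, -1.73 for SF3A2, -1.45 for SF3A3 and -1.22 for SF3A1, and the 5 SF3B genes lay between -0.84 and -0.31. The median of the 10 differences was -0.47, against -0.02 over all 19775 genes and -0.23 over the brighter genes. A negative difference was found in 53.1% of all genes and in 68.8% of the brighter ones. Of the 24 probe sets 19 had a negative difference, against 54% of all probe sets. The study called a probe set at a change over 2-fold and an unadjusted p under 0.05. With limma, 1 of the 24 was lower by that threshold and 0 were higher, against 0.0275% lower and 0.0165% higher over all probe sets. Among probe sets with a mean of at least 3 the shares were 0.203% lower and 0.102% higher. Of the 24, the 1 that was lower reads SF3A2, which the study's list of decreasing genes does not name. SF3A1, which that list names, had no probe set past the threshold in this fit. Over all probe sets this fit called 15 lower and 9 higher. The study reports far more genes in each direction, so SF3A1 is not the only listed gene without a call here. Nothing about SF3A1 or SF3A2 alone is read from this mismatch, and its cause was not tested. With the replicate number as a block, 3 of the 24 were lower, 1 for each SF3A gene, and 0 were higher, against 0.32% lower and 0.0952% higher over all probe sets. These 3 had means of at least 3, and among such probe sets 3.17% were lower and 0.711% higher. As this contrast chose the genes, nothing is read from these counts.

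**Figure D1:**
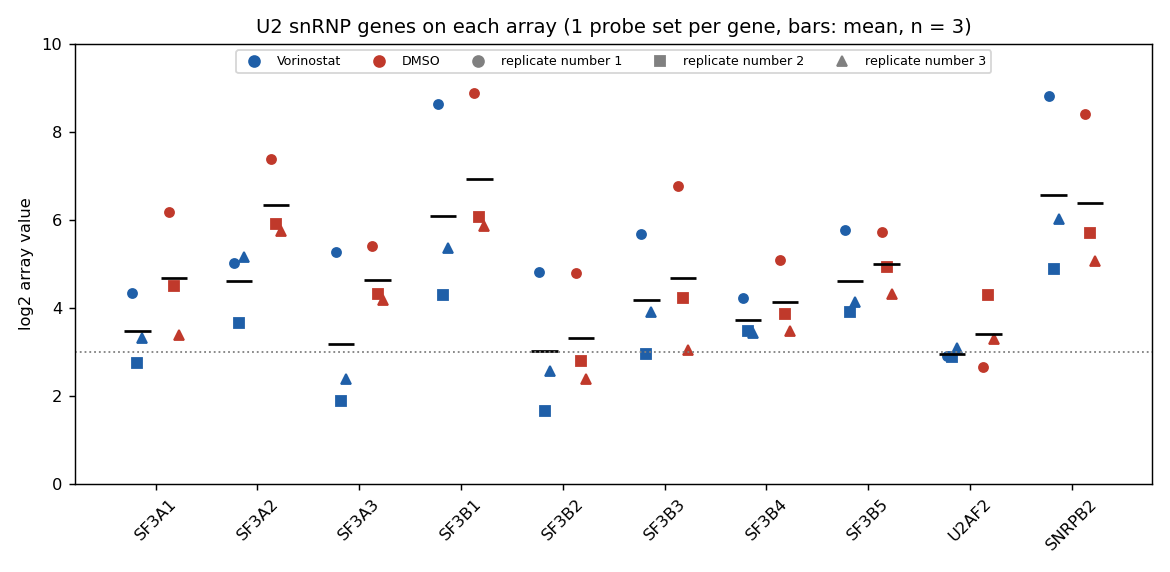
Log2 array values of the 10 genes, 1 probe set per gene. Each point is 1 array, blue for Vorinostat and red for DMSO with the marker showing the replicate number, black bars are group means of n = 3 and the dotted line is a log2 value of 3. The 3 Vorinostat arrays of SF3A2 sit between 3.66 and 5.17, all below its DMSO arrays.

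SF3A2, a zinc finger protein that contacts the U2 RNA and the intron, had the largest difference of the 10 genes. Its probe set 37462_i_at had log2 values of 5.03, 3.66 and 5.17 on Vorinostat arrays 1, 2 and 3, against 7.38, 5.92 and 5.74 on DMSO arrays 1, 2 and 3. All 3 Vorinostat arrays lay below all 3 DMSO arrays, and the groups did not overlap. The group means were 4.62 ± 0.83 with Vorinostat and 6.35 ± 0.90 with DMSO (SD, n = 3 each), a difference of -1.73 (standard error 0.61 from limma), or 3.32-fold lower. Over all probe sets 2.87% were lower without overlap of the groups. The difference was -2.36, -2.26 and -0.57 within replicate numbers 1, 2 and 3. It was also larger than the range of 1.64 between the DMSO arrays. The suffix i_at of this probe set is borne by no other of the 24, and its meaning for the values was not examined.

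The second probe set of SF3A2 showed a smaller difference in the same direction. 209381_x_at, whose suffix marks probes that may match other transcripts, had values of 3.39, 3.19 and 3.25 on the Vorinostat arrays, against 4.69, 4.24 and 3.19 on the DMSO arrays. Its groups met at DMSO array 3, which was about as low as the lowest Vorinostat array. The difference was -0.76 (standard error 0.39 from limma), with -1.29, -1.05 and 0.06 within numbers 1, 2 and 3. The probe sets of SF3A2 thus shared the sign in 2 of the 3 numbers and differed by 0.97 in size. Over the 6 arrays their values had a Pearson correlation of 0.81, which includes the signal differences that all probe sets of an array share. It was 0.78 after each array had been shifted to one median over the probe sets with a mean of at least 3. That shift need not free a dim probe set of array signal.

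SF3A1, which binds both SF3A2 and SF3A3 and also contacts the U1 particle, was read by 4 probe sets. The one of the highest mean, 201356_at, had values of 4.34, 2.74 and 3.31 on the Vorinostat arrays, against 6.17, 4.49 and 3.38 on the DMSO arrays. In replicate numbers 1 and 2 the Vorinostat array was clearly the lower one and in number 3 the arrays were nearly equal. The groups overlapped, since Vorinostat array 1 lay above DMSO array 3. The means were 3.46 ± 0.81 with Vorinostat and 4.68 ± 1.41 with DMSO (SD, n = 3 each), a difference of -1.22 (standard error 0.81 from limma), or 2.33-fold lower. The differences within numbers 1, 2 and 3 were -1.84, -1.75 and -0.07, and the DMSO arrays alone spanned 2.80.

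With the deposited values the 4 probe sets of SF3A1 had a negative mean difference, whose size depended on the probe set. 216457_s_at gave -1.24 (standard error 1.61 from limma), with -3.19, -0.46 and -0.06 within numbers 1, 2 and 3. Most of it came from number 1, and on the arrays of numbers 2 and 3 this probe set stayed between 1.49 and 1.95. 201357_s_at gave -0.96, with 1.66, 1.30 and 1.73 on the Vorinostat arrays, against 3.42, 2.55 and 1.62 on the DMSO arrays. It too was lower in numbers 1 and 2 and slightly higher in number 3. 227516_at gave -0.21 (standard error 0.58 from limma), and its differences of -1.17, -0.19 and 0.74 within numbers 1, 2 and 3 did not share a sign. Its mean difference was 0.003 after the shift of the arrays and 0.13 after quantile normalisation, so the 4 did not share a direction under either, and 216457_s_at was at 0.48 without DMSO replicate 1. As deposited, the spread between the lowest and the highest probe set was 1.03, and the Pearson correlations between them over the 6 arrays lay between 0.78 and 0.94, values that include the signal shared by an array. After the shift they lay between -0.12 and 0.90, and 216457_s_at had 0.27 with 201356_at, -0.06 with 201357_s_at and -0.12 with 227516_at. The shift takes the same amount off every probe set of an array, so a dim probe set can take on the inverse of the array signal. The 0.90 was that of 201357_s_at and 227516_at, with means of 2.05 and 3.01, and is not free of array signal.

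**Figure D2:**
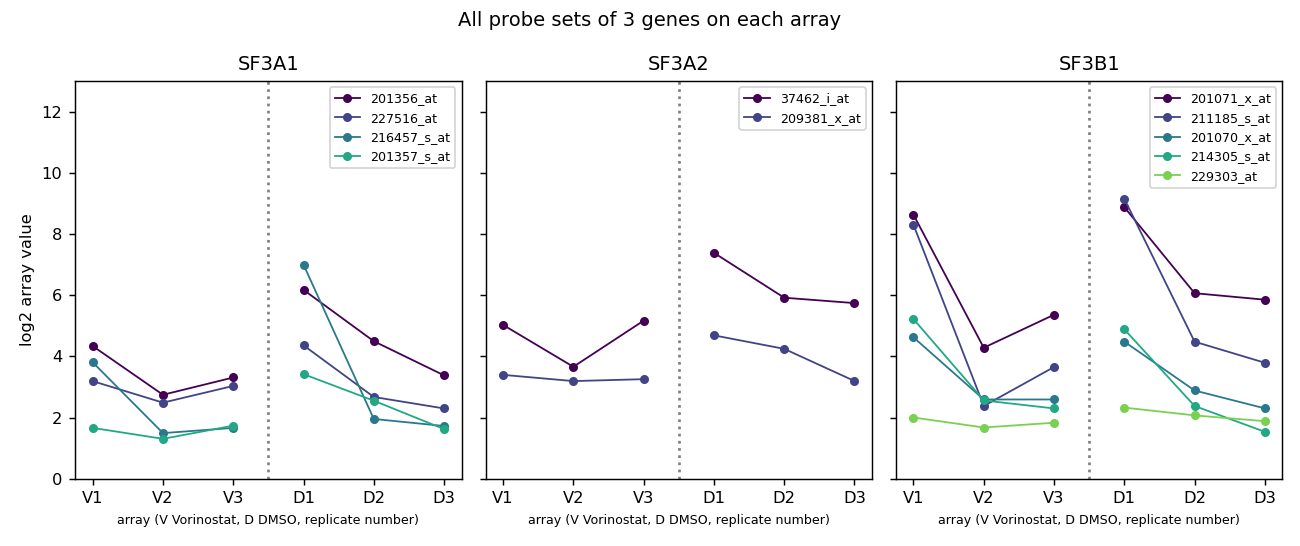
Log2 values of every probe set of SF3A1, SF3A2 and SF3B1 on the 3 Vorinostat arrays (V1 to V3) and the 3 DMSO arrays (D1 to D3), with 1 line per probe set and group. The probe sets of SF3A1 and SF3A2 have lower mean values with Vorinostat as deposited, while those of SF3B1 have mean differences between -1.03 and 0.43.

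SF3A3, a zinc finger protein that ties SF3A to the core of the particle, had 1 probe set, 203818_s_at. Its values were 5.26, 1.89 and 2.38 on the Vorinostat arrays, against 5.40, 4.31 and 4.17 on the DMSO arrays. In number 1 the arrays were nearly equal, and in numbers 2 and 3 the Vorinostat arrays were lower, so its pattern over the numbers was unlike that of SF3A1. The groups overlapped through Vorinostat array 1. The means were 3.18 ± 1.82 with Vorinostat and 4.63 ± 0.67 with DMSO (SD, n = 3 each), a difference of -1.45 (standard error 0.97 from limma), or 2.73-fold lower, with -0.14, -2.42 and -1.79 within the numbers. It was, with the first probe set of SF3A2, 1 of 2 among the 24 whose difference was larger than the range of the DMSO arrays, here 1.23. No second probe set was there to set beside it.

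SF3B1, the scaffold that clamps the branch site and the subunit mutated in myeloid disease, was read by 5 probe sets that did not share a direction. Among them 201071_x_at and 201070_x_at carry the suffix of probes that may match other transcripts. The first, 201071_x_at, had 8.63, 4.28 and 5.36 on the Vorinostat arrays, against 8.88, 6.06 and 5.85 on the DMSO arrays, so the spread over the numbers was far larger than the difference of -0.84 (standard error 1.40 from limma). It was lower in each number, with differences of -0.25, -1.78 and -0.49 in numbers 1, 2 and 3. 211185_s_at followed it closely, with a Pearson correlation of 0.99 over the 6 arrays and a difference of -1.03 (standard error 2.12 from limma). It had 8.30, 2.38 and 3.65 on the Vorinostat arrays, against 9.15, 4.48 and 3.79 on the DMSO arrays. The others had positive differences or low values. 214305_s_at had 5.22, 2.56 and 2.30 on the Vorinostat arrays, against 4.88, 2.38 and 1.53 on the DMSO arrays. Its groups overlapped over nearly their whole range. It had a difference of 0.43 (standard error 1.18 from limma) and was higher in each number, with 0.33, 0.18 and 0.76, and 201070_x_at had 0.05. 229303_at had -0.26 and stayed below a log2 value of 3 on every array.

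The other SF3B subunits among the 10 genes had small differences beside their spread. SF3B4, an RNA-binding protein that contacts the pre-mRNA near the branch site, had 4.22, 3.48 and 3.43 on the Vorinostat arrays, against 5.08, 3.87 and 3.46 on the DMSO arrays. The difference of SF3B4 was -0.43 (standard error 0.48 from limma) and was negative in each number, most in number 1. Its only probe set, 209044_x_at, carries the suffix of probes that may match other transcripts. SF3B5, the smallest subunit, had 5.77, 3.91 and 4.13 on the Vorinostat arrays, against 5.72, 4.92 and 4.32 on the DMSO arrays, a difference of -0.38 (standard error 0.62 from limma) that lay mostly in number 2. SF3B3, a beta-propeller scaffold, had 5.68, 2.94 and 3.92 on the Vorinostat arrays, against 6.76, 4.22 and 3.03 on the DMSO arrays. It was lower in numbers 1 and 2 and higher by 0.89 in number 3, with a mean difference of -0.49 (standard error 1.17 from limma). SF3B2, which holds SF3B4 in the complex, had 4.82, 1.65 and 2.56 on the Vorinostat arrays, against 4.80, 2.78 and 2.37 on the DMSO arrays. Its difference of -0.31 (standard error 1.04 from limma) rested on number 2, with -1.13. The second probe sets of SF3B2 and SF3B3, 1558230_at and 200688_at, had differences of 0.31 and -0.16 and did not pass a log2 value of 3 on any array.

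The partners U2AF2 and SNRPB2 had differences of opposite sign. U2AF2 was read by 4 probe sets. 218381_s_at had 2.91, 2.87 and 3.09 on the Vorinostat arrays, against 2.66, 4.28 and 3.29 on the DMSO arrays, and its difference of -0.45 (standard error 0.42 from limma) rested on DMSO array 2. The others had differences between -0.18 and 0.27 and stayed below a log2 value of 3 on all arrays. Among them 218382_s_at had Vorinostat arrays between 1.86 and 1.93, all below its DMSO arrays between 1.94 and 2.30. SNRPB2 on probe set 202505_at had 8.82, 4.87 and 6.03 on the Vorinostat arrays, against 8.40, 5.71 and 5.06 on the DMSO arrays. It was the 1 gene of the 10 with a positive mean difference, 0.19 (standard error 1.34 from limma), higher in numbers 1 and 3 and lower in number 2, at -0.83. Its other probe set, 1561965_at, stayed below a log2 value of 3 on all arrays.

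**Figure D3:**
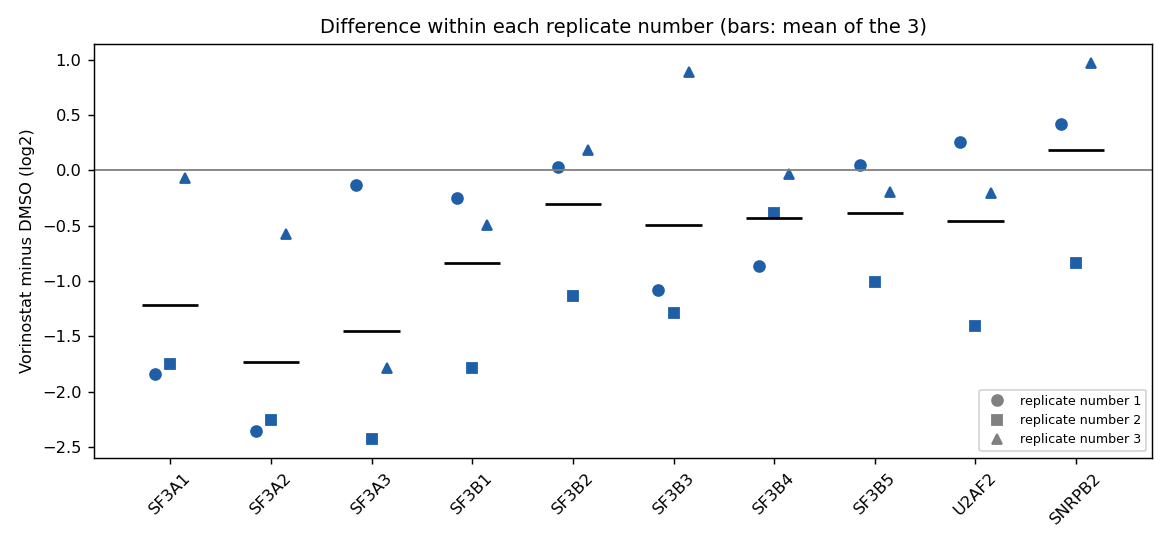
Vorinostat minus DMSO of the same 10 probe sets within each replicate number, on the log2 scale. Each marker is the difference of 1 pair of arrays and black bars are the mean of the 3. SF3A2 lies below 0 in each number, at -2.36, -2.26 and -0.57, and SF3A3 at -0.14, -2.42 and -1.79.

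Read by replicate number, all 10 genes were lower in number 2, 6 of 10 in number 1 and 7 of 10 in number 3. The array values could not tell whether numbers 2 and 3 are rightly paired across the treatments. The medians of the 10 differences were -0.19, -1.35 and -0.13 in numbers 1, 2 and 3, beside -0.15, -0.73 and 0.20 for the brighter genes on the same arrays. SF3A1, SF3A2, SF3A3, SF3B1 and SF3B4 were lower in each number, 5 of the 10 genes, against 19.5% of the brighter genes and 13.7% of all genes. This count was 3 of 10 after the shift of the arrays, against 15.4% of the brighter genes, and 3 of 10 after quantile normalisation, against 18.3%. SF3A1, SF3A2 and SF3B1 made up the 3 under both. SF3A3 was at 0.06 after the shift and 0.05 after quantile normalisation in number 1, and SF3B4 at 0.38 and 0.31 in number 2. SNRPB2 was higher in each number after quantile normalisation, as were 11.5% of the brighter genes. Of the 24 probe sets 9 were lower and 2 higher in each number, against 14.7% and 12.4% of all probe sets. Signal on the arrays moves with these differences, and its part in them was not tested. Of the 24 probe sets, 6 had a log2 value over 3 on all 6 arrays and 7 had none over 3 on any array.

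Both scalings kept the sign of the mean difference of each of the 10 genes on its brightest probe set and moved its size. After the shift of the arrays the difference was -1.52 for SF3A2, -1.24 for SF3A3 and -1.01 for SF3A1, and the median of the brighter genes was -0.02. The differences of SF3A1 were then -1.64, -0.98 and -0.40 in numbers 1, 2 and 3 and its groups no longer overlapped, while those of SF3A2 were -2.16, -1.49 and -0.91 and its groups did overlap. Of the brighter genes 3.02% were lower without overlap after the shift, against 0.799% as deposited. After quantile normalisation the mean differences were -1.29 for SF3A2, -1.78 for SF3A3 and -0.96 for SF3A1. SNRPB2 was positive under each scaling, at 0.40 after the shift and 0.56 after quantile normalisation. On their brightest probe sets SF3A1, SF3A2 and SF3A3 had the 3 lowest differences of the 10 genes under each of the 3 scalings. This order depended on the probe set and the arrays. SF3B1 on 211185_s_at was at -1.12 after quantile normalisation. Without Vorinostat replicate 1, SF3B1 at -2.11 on its brightest probe set lay below SF3A1 at -1.66 and SF3A2 at -1.93. Without the number 1 arrays SF3B1 at -1.14 lay below SF3A1 at -0.91. Without DMSO replicate 1, U2AF2 at -0.83 lay below SF3A1 at -0.47.

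**Figure D4:**
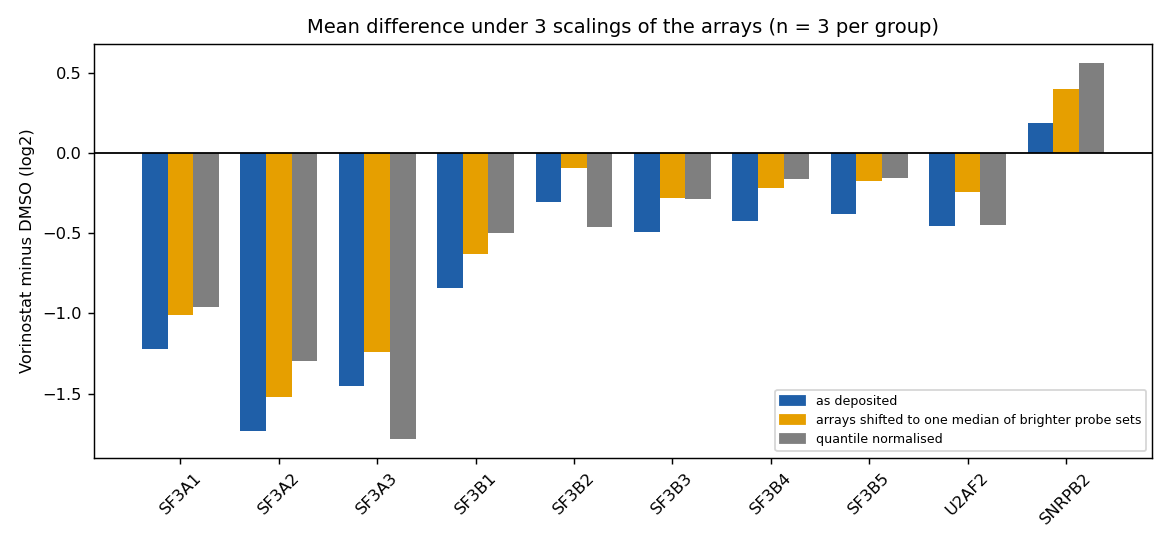
Mean difference, Vorinostat minus DMSO on the log2 scale, of the 10 genes with the deposited values (blue), with the arrays shifted to one median of brighter probe sets (orange) and after quantile normalisation (grey). The bars of SF3A2 stand at -1.73, -1.52 and -1.29 and those of SNRPB2 at 0.19, 0.40 and 0.56.

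Over the 6 arrays 9 of the 10 genes had positive correlations with each other, which include the signal that the probe sets of an array share. Leaving out U2AF2, the 36 pairs of genes had Pearson correlations between 0.47 and 0.99, and the pairs with U2AF2 had between -0.43 and 0.06. With the shift of the arrays all 45 pairs ranged from -0.82 to 0.99, and the pair of SF3A1 and SF3A2 had 0.87 as deposited and 0.92 after the shift. U2AF2 and SF3B5 went from -0.14 to 0.99, and the shift can give a dim probe set the inverse of the array signal. The shifted correlations are thus not free of array signal. Among 3378 other brighter genes, the 5 most like SF3A1 by Pearson correlation over the 6 arrays were MCM5 (0.996), DUS1L (0.995), PICALM (0.988), FOXM1 (0.984) and UBE2C (0.981), where the median gene had 0.79. MCM5 is a subunit of the replicative helicase, FOXM1 a transcription factor of mitotic genes and UBE2C the conjugating enzyme of the anaphase-promoting complex. The 5 most like SF3A2 were KEAP1 (0.978), UBA1 (0.973), COIL (0.959), NFX1 (0.958) and ARHGAP19 (0.956), where the median gene had 0.54. COIL is coilin, the marker protein of Cajal bodies, UBA1 the ubiquitin-activating enzyme and KEAP1 the sensor that holds NRF2 in check. No gene stood in both groups of 5. These correlations rest on 6 arrays that differ in signal and carry no p.

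Beyond these genes, 150 other genes of splicing were measured, of 158 in 9 lists, and 0 passed the threshold of the study in either direction, against 0.0506% lower and 0.0455% higher over all genes. At an adjusted p under 0.05 from limma 0 were lower and 0 higher, and at an unadjusted p under 0.05 again 0 and 0, against 0.389% and 0.602% of all genes. By the methods' t-test 0 passed the threshold of the study as well. Of the 150, 119 had a negative difference, with a median of -0.25, and of the 107 brighter ones 90 had, with a median of -0.38. These counts depended on the scaling. After the shift 86 of the 150 and 71 of the 107 were negative, with a median of -0.04 over the 150. Of the 3379 brighter genes 1739 were negative on that scale. After quantile normalisation 92 of the 150 and 65 of the 107 were negative, with a median of -0.10 over the 150. Of the 3379 brighter genes 1863 were negative after it. Lower in each replicate number were 24 of the 107, or 22.4%, near the 19.5% of the brighter genes. The values of single lists are as deposited. With the replicate number as a block 13 of the 150 were lower at an unadjusted p under 0.05, 8.67%, against 3.12% of all genes and 9.35% of the brighter genes, and 1 was higher, against 2.25% of all genes. SYNCRIP, an RNA-binding protein of the hnRNP group, was the 1 gene past the threshold of the study with the block, at -1.05. By that threshold 0.632% of all genes were lower and 0.197% higher, and 3.26% and 0.799% of the brighter genes. With the block 0 genes passed an adjusted p under 0.05. RBFOX2, a regulator of alternative exons, was the 1 gene whose groups did not overlap, with a difference of 0.21 at a mean under 3, against 2.3% of all genes that were higher without overlap. It was chosen after its values were seen.

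The other 18 genes of the U2 particle and the branch site step had a median difference of -0.17, with 13 negative. The helicase DHX15 had -0.71, U2AF1, the partner of U2AF2 that reads the end of the intron, had 0.13, and CHERP had -0.78. SF3B6, named here for its name, had -0.17, with 0.28, -2.13 and 1.34 in numbers 1, 2 and 3. The Sm core ring, which wraps the RNA of most snRNPs, had 7 of 8 negative with a median of -0.61, and its brightest genes SNRPG, SNRPD2 and SNRPD3 had -0.58, -0.47 and -0.75. None of these 3 passed the threshold, and their standard errors from limma lay between 1.06 and 1.27. The U1 particle had 8 of 8 negative with a median of -0.18, and SNRNP70 had -0.56, LUC7L3 -0.06 and SNRPC -0.07.

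For the later steps most differences were negative as deposited. The U4/U6.U5 tri-snRNP had 20 of 26 negative with a median of -0.28, and LSM8, TXNL4A and the GTPase EFTUD2 had 0.29, -0.52 and -0.35. The PRPF19 complex and catalytic step factors had 19 of 25 negative with a median of -0.26, and SNW1, CWC15 and PLRG1 had -0.29, 0.05 and -0.26. The minor spliceosome, which removes a rare class of introns, had 6 of 10 negative with a median of -0.04, and 3 of its genes were brighter, SNRNP25 at -0.79, ZCRB1 at -0.23 and PDCD7 at -0.54.

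Regulators of splicing also had mostly negative differences as deposited. SR proteins and their kinases had 15 of 20 negative with a median of -0.42, and SRSF3, SRSF5 and SRRM2 had -1.24, -1.12 and -0.61. The hnRNP and other regulators had 25 of 29 negative with a median of -0.37, and HNRNPK, HNRNPU and HNRNPM had -0.18, -0.32 and -0.86. The exon junction complex had 6 of 7 negative with a median of -0.31, and PNN, SAP18 and RNPS1 had -0.46, -0.22 and -0.59. None of these genes passed the threshold of the study. A control list of housekeeping genes had 11 of 11 negative with a median of -0.51, which is below the median of each of these splicing lists but the Sm core ring.

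**Figure D5:**
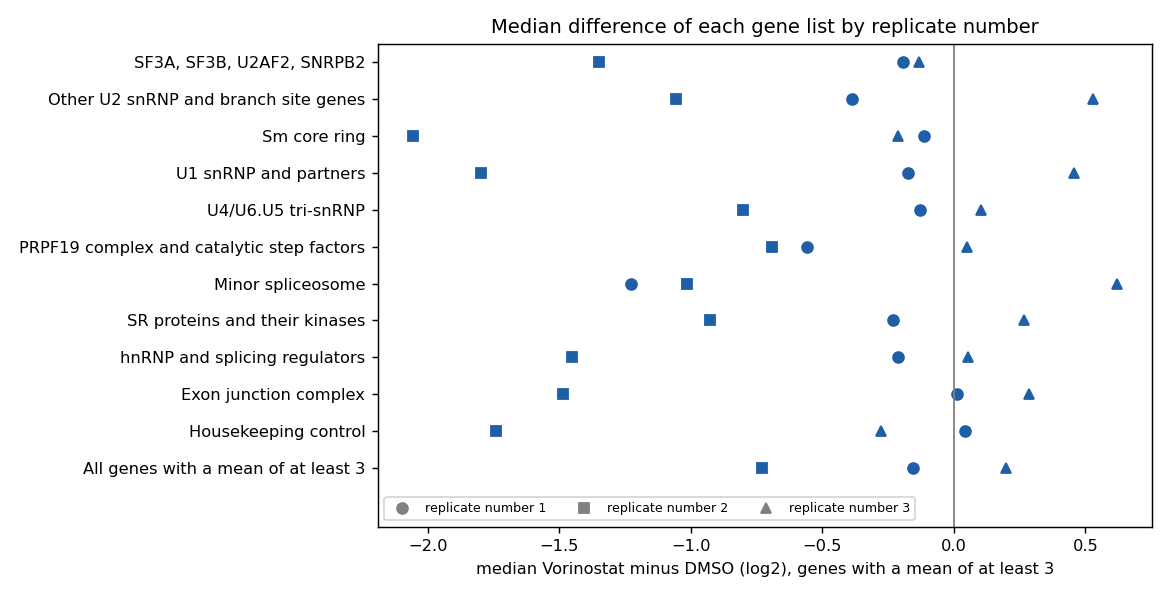
Median difference of each gene list, Vorinostat minus DMSO on the log2 scale, in each replicate number, over the genes of the list with a mean of at least 3. Each marker is 1 replicate number. Number 2 lies lowest in all lists but the minor spliceosome, at -1.35 for the 10 genes described here, -1.74 for housekeeping genes and -0.73 for all brighter genes.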

How the data were processed

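Expression values of OCI-AML3 cells, 3 samples with Vorinostat and 3 with DMSO, were read on HG-U133 Plus 2.0 arrays of Affymetrix. The authors deposited log2 values for each probe set and array in a single table. Partek Genomics Suite appears in the paper's methods. MAS5 and RMA appear in the submitters' processing notes, whose role here is not given in the sources used. The scale was read from the values, and the arrays are not quantile normalised, so array signal can move a difference. The number of arrays limits the precision.

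Of 54675 probe sets 62 controls were left out and 54613 were tested by limma (version 3.58.1, R 4.3.3), with no further normalisation, no filter, no block and Benjamini-Hochberg adjustment, and the fit was tested on simulated data. Of these, 41091 name 1 gene in the platform annotation, 1801 several and 11721 are unnamed here. A gene stands by its probe set of the highest mean. Named genes are the 10 members, the 3 brightest genes of each list, genes past the threshold of the study and the 5 most like SF3A1 and SF3A2. SF3B6 was added for its name. Members and lists were chosen with earlier results of these data known. Promoter windows came from RefSeq, with entries for 9 of the 10 genes, all but SF3B3. Exact permutation of 3 arrays against 3 cannot go below a p of 0.1 and was not used.

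Deviations of arrays from their group mean correlated over probe sets by 0.874, 0.599 and 0.672 for numbers 1, 2 and 3, each above 0.1, so samples of the same number were treated as pairs in the block, though no source says what they share. Numbers 2 and 3 were not told apart by this check, as Vorinostat 2 correlated with DMSO 3 by 0.695 and Vorinostat 3 with DMSO 2 by 0.594. Deviations from a group mean cancel out within the group, and array 1 was the brightest of each group. Numbers 2 and 3 would thus correlate under either pairing, and the level of 0.1 could hardly fail for them. Alternatives were the replicate block, quantile normalisation, a shift of each array, a filter on dim probe sets, the methods' t-test and leaving out arrays.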

Additional observations from a re-analysis of the deposited data

How the results depend on the processing

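SF3A1, SF3A2 and SF3A3 kept a negative difference on their brightest probe set under the 11 alternatives that can move a mean difference. It ranged from -1.87 to -0.47, from -2.31 to -1.21 and from -2.49 to -0.81. These alternatives reuse the arrays by which the genes were chosen, so the kept sign is a description and no support. Without DMSO replicate 1, SF3B1 was 0.13, SF3B2 0.43, SF3B3 0.55 and SF3B4 0.05, so these 4 turned, and without Vorinostat replicate 2, SF3B1 was 0.06, SF3B2 0.37 and SF3B3 0.13. Without the number 2 arrays SF3B2 was 0.11 and U2AF2 0.02. SNRPB2 ranged from -0.94 without Vorinostat replicate 1 to 1.19 without DMSO replicate 1. Under the 11 alternatives, 261 of 264 differences of single probe sets moved by less than the spread between replicates. Array signal widens that spread, so this count says little about stability. Of the 24 probe sets 16 changed sign at least once. Among them was 227516_at of SF3A1, with values between -0.68 and 0.42. The median over the 10 genes was -0.47 and ranged from -1.23 (without Vorinostat replicate 1) to 0.014 (without DMSO replicate 1) when single arrays were left out, and that over the 150 other splicing genes from -1.20 to 0.45, without the same arrays. It was -0.87 without DMSO replicate 3.

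By the study's threshold 1 of the 24 probe sets was lower, and this count was 3 with the replicate block, 2 without the number 1 arrays, 2 without the number 3 arrays, and 0 without the number 2 arrays, after the shift of the arrays, with the filter on dim probe sets and by the methods' t-test. Leaving out single arrays it was between 0 and 3, with 0 without DMSO replicate 1, DMSO replicate 2 or Vorinostat replicate 2, 2 without Vorinostat replicate 1 and 3 without DMSO replicate 3. After quantile normalisation the 1 was SF3A3 and not SF3A2. Of other splicing genes 3 were lower without the number 1 arrays, 1 with the replicate block and between 0 and 3 when single arrays were left out. Over all probe sets, 9 were higher and 15 lower. These were 52 and 175 with the replicate block, 46 and 71 after quantile normalisation, 2 and 1 after the shift, 0 and 1 with the filter, 3 and 2 by the methods' t-test, 83 and 205 without the number 1 arrays, 19 and 4 without the number 2 arrays, 33 lower without the number 3 arrays, and between 5 and 99 higher and 0 and 141 lower when single arrays were left out. Leaving out numbers 2 and 3 was chosen after seeing the data. The cause of these moves was not tested. At an unadjusted p under 0.05 the replicate block moved the other splicing genes to 13 lower and 1 higher, against 0 and 0 without it. At an adjusted p under 0.05 all counts were 0.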
